A study of Homo sapiens with 2 samples.

Results

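The genes described here build and police the folding compartment of the secretory pathway: the chaperones, disulfide enzymes, translocon, degradation machinery and stress sensors of the endoplasmic reticulum (ER). They were taken by symbol from a list of 39 genes. A total of 38 were found in the table, and all 38 averaged 1 FPKM or more across the pair of libraries, as did 10601 genes in all. WFS1 is not analysed here. The cells were THP-1, a long-established line from a human monocytic leukaemia (AML), grown in RPMI-1640 with serum. Control cells were kept for 48 h in DMSO and treated cells for 48 h in 2 µM of an agent that the labels call OPA1. OPA1 is the name of this treatment and not the mitochondrial gene. By its title the series concerns opioid receptors and TET-dependent demethylation, and the comparison addresses which mRNAs differ after exposure to the agent. Each treatment was 1 library of total RNA, and the labels do not say how many cultures it came from, so the differences below are those of 1 library against another, with no replicate to check them and no p-value.

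Proteins destined for secretion, lysosomes or the cell surface enter the ER through the SEC61 channel while they are being made. Inside, HSP70 and HSP90 family chaperones, lectins that read the sugar chains, and disulfide isomerases help them fold. Those that fail are marked, drawn back through the membrane and destroyed by the proteasome, a process called ER-associated degradation (ERAD). When unfolded proteins build up, the sensors IRE1 (gene ERN1), PERK (EIF2AK3) and ATF6 start the unfolded protein response, which raises chaperone and ERAD genes. Monocytic cells use this machinery to make their lysosomal enzymes, cytokines and surface receptors.

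The values were the authors' FPKM per protein-coding transcript, summed here per gene. FPKM scales fragments to transcript length and library total, so levels can be compared between genes. The number of reads is unknown, and no counting interval can be given. The log2 ratios below are of OPA1 over DMSO after adding 1 FPKM, which makes the differences of low genes smaller, while folds and percentages are plain ratios of FPKM. Where a pair of levels is given, the first is of the DMSO library and the other of the OPA1 library. Listed FPKM summed to 325059 with DMSO and 331515 with OPA1, and the median log2 ratio of all 10601 genes was 0.00, with an interquartile range of -0.15 to 0.16. Of 14 markers of monocytic leukaemia lines, 13 were listed and all 13 averaged 1 FPKM or more, with summed levels of 1485 FPKM and 1739 FPKM. CD14 is not analysed here. Of 21 markers of T and NK cells, B cells, erythroid cells, epithelium and fibroblasts, only NCAM1 (9.17 FPKM under DMSO and 7.15 under OPA1) and EPOR (1.44 FPKM and 1.27 FPKM) averaged that much.

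The set was lower in the OPA1 library more often than not, by small amounts. Of the 38 genes, 26 were lower and 12 higher, against 50.1% of all genes lower by any amount. The members and their roles were chosen with earlier results of these data known, so contrasts with all genes and among roles are descriptive. The median log2 ratio of the 38 genes was -0.09, or 1.06-fold lower. A smaller threshold was set where the libraries differ by 25% of the lower value, taken on FPKM + 1. Past it, 8 genes were lower, against a background of 11.3% of all genes, and 2 genes were higher, against 12.6%. At 2-fold, 3 genes were lower, where 1.99% of all genes were, and 0 were higher, where 1.97% were. In RNA from whole cultures, a difference in every cell and a difference in the share of cells cannot be told apart. Most of the set is well expressed: 29 genes averaged 10 FPKM or more, a level chosen after the data were seen, and 21 of these 29 were lower. Among all 4987 genes at that level 49.9% were lower, and 8.08% were lower past the 25% threshold, against 7 of the 29. Together the 38 genes held 0.862% of the listed FPKM with DMSO and 0.785% with OPA1.

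**Figure D1:**
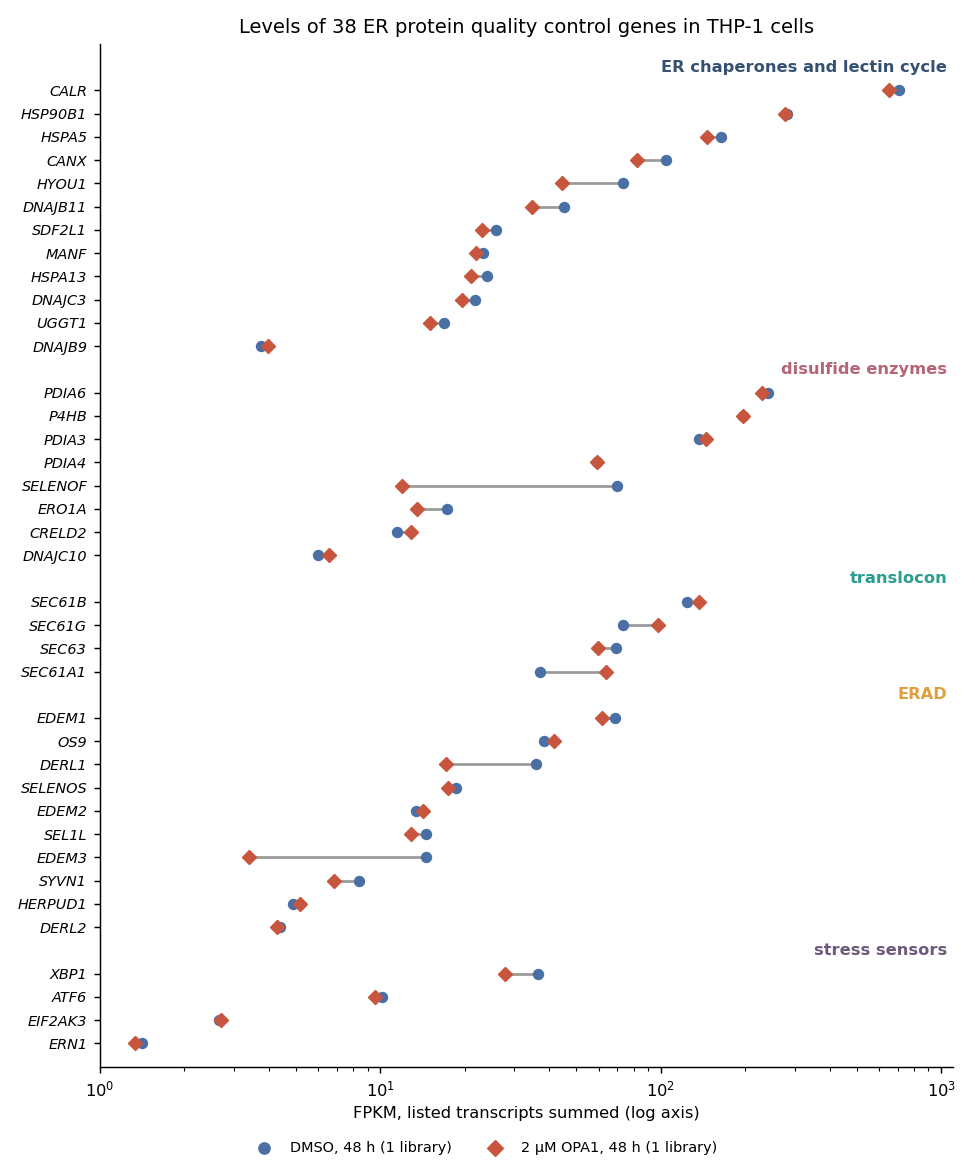
FPKM of each gene, on a log axis, in the DMSO library (circles) and the OPA1 library (diamonds), grouped by role and ordered by level; a grey line joins both values. CALR stands highest, at 705 and 652 FPKM, and ERN1 lowest, at 1.41 and 1.34 FPKM; the longest lines belong to SELENOF and EDEM3.

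The chaperones and the lectin cycle were lower almost throughout. Of 12 genes 11 were lower in the OPA1 library and 3 were so past the 25% threshold, with a median log2 ratio of -0.16 (1.12-fold lower). Among all genes 50.1% were lower and 11.3% were so past the threshold. CALR, the soluble lectin calreticulin, was the most abundant of all 38 genes, ranking 48 of the 10601, and was at 705 FPKM under DMSO and 652 under OPA1. HSP90B1, the ER form of HSP90 also called GRP94, was at 282 and 278 FPKM, a difference of 1.59%. HSPA5, the central HSP70 chaperone BiP and the standard readout of the unfolded protein response, was at 164 and 147 FPKM, or 10.6% lower. The highest members thus differed little.

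HYOU1, a large HSP70 relative that exchanges nucleotide on BiP (chromosome 11, 118914900 to 118927905, hg19), was at 73.5 FPKM under DMSO and 44.3 under OPA1. It was 1.66-fold lower, with a log2 ratio of -0.72, and 3.75% of all genes had a ratio as low. All 6 listed HYOU1 transcripts were lower, by 1.44-fold to 2.46-fold, with HYOU1-220, annotated with 999 codons, at 35.0 and 20.1 FPKM. DNAJB11, a J-domain partner that delivers unfolded clients to BiP, was at 45.1 and 34.7 FPKM (1.30-fold lower). CANX, the membrane-bound lectin calnexin, was at 104 and 82.3 FPKM (1.27-fold lower), and 6 of its 7 listed transcripts were lower.

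The other chaperones differed by less. SDF2L1, a BiP cofactor, was at 25.8 and 23.0 FPKM, and MANF, a secreted factor that binds BiP, at 23.2 and 21.9 FPKM. HSPA13, a divergent HSP70, was at 24.0 and 21.0 FPKM. DNAJC3, a J-domain protein also known as p58IPK, was at 21.8 and 19.6 FPKM. UGGT1, the glucosyltransferase that returns misfolded glycoproteins to calnexin and calreticulin, was at 16.9 and 15.0 FPKM. The exception in direction was DNAJB9, a J-domain protein that restrains IRE1, at 3.76 and 3.99 FPKM. HSPA5, HSPA13, SDF2L1, MANF, DNAJC3, UGGT1 and DNAJB9 each had 1 listed transcript, so their values do not depend on how reads were shared among listed transcripts.

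**Figure D2:**
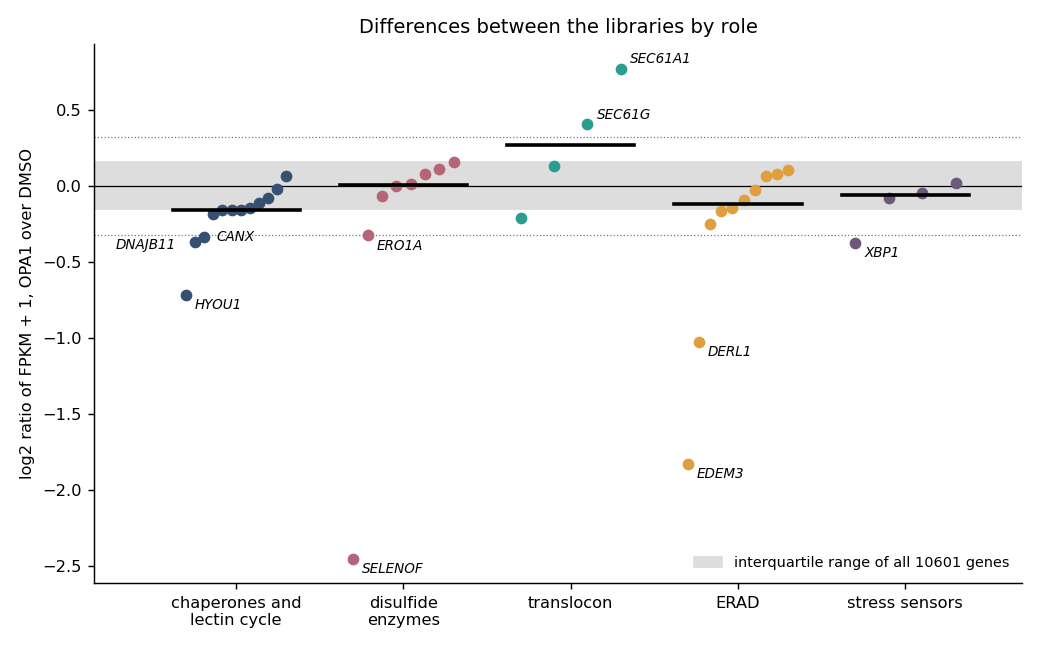
Log2 ratio of FPKM + 1 (OPA1 over DMSO) of each gene by role; black bars are group medians, the grey band is the interquartile range of all 10601 genes, and dotted lines mark the 25% threshold. Medians run from -0.16 for the chaperones to 0.27 for the 4 translocon genes, and the named genes lie at or beyond the dotted lines.

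The disulfide enzymes were split, with 4 genes lower and 4 higher and a median log2 ratio of 0.00. Summed over transcripts, the classical isomerases were nearly level. P4HB, the founding protein disulfide isomerase, was at 196 FPKM under DMSO and 197 under OPA1, and PDIA4, also called ERp72, was at 59.2 and 59.0 FPKM. PDIA3, the isomerase that works with calnexin and calreticulin on glycoproteins, was at 137 and 145 FPKM. PDIA6 was at 241 and 230 FPKM. CRELD2, a cysteine-rich secretory stress protein, was at 11.5 and 12.9 FPKM, and DNAJC10, a reductase that opens disulfides before degradation, at 6.01 and 6.56 FPKM. The main DNAJC10 transcript, DNAJC10-201, was lower, at 5.32 and 4.25 FPKM, and the 2 others listed were higher.

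Larger values came from ERO1A and SELENOF, and both rested on a single transcript. ERO1A, the oxidase that recharges the isomerases, was at 17.2 and 13.6 FPKM (1.27-fold lower). Its main transcript ERO1A-201 was at 14.2 and 13.5 FPKM, while ERO1A-208, annotated with an incomplete coding part, was at 3.07 and 0.0929 FPKM. SELENOF, a selenoprotein bound to UGGT1, had the lowest ratio of the set, at 69.7 and 11.9 FPKM (5.84-fold lower, log2 ratio -2.45). SELENOF-202 alone was at 57.2 and 0.0011 FPKM. The sum of the other SELENOF transcripts was 12.5 FPKM under DMSO and 11.9 under OPA1. SELENOF-202 is annotated with 124 codons and SELENOF-201 with 165.

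Translocon genes were mostly higher in the OPA1 library. SEC61A1, the pore-forming subunit (chromosome 3, 127771212 to 127790525, hg19), was at 36.9 FPKM under DMSO and 63.8 under OPA1, or 1.73-fold higher. Its log2 ratio of 0.77 was the highest of the 38 genes, and 3.25% of all genes had a ratio as high. SEC61A1-201 carried this difference, at 35.8 and 63.8 FPKM. SEC61G, a small subunit that braces the pore, was at 73.4 and 97.4 FPKM, and SEC61B, the other small subunit, at 124 and 136 FPKM. SEC63, which recruits BiP to the channel and feeds proteins in after their synthesis, was lower, at 69.3 and 59.7 FPKM. With 3 of 4 genes higher, where 50.1% of all genes were lower, the median log2 ratio was 0.27. It was 0.13 without SEC61G, whose FPKM lay on different transcripts in each library, and 0.47 with 1 transcript per gene, that of the highest mean FPKM.

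In ERAD the median log2 ratio was -0.12, and 7 of 10 genes were lower, against 50.1% of all genes. Most values were close. With that 1 transcript per gene the median was -0.008. SYVN1, the ubiquitin ligase HRD1 at the core of retrotranslocation, was at 8.36 FPKM under DMSO and 6.85 under OPA1 (1.22-fold lower), and its partner SEL1L at 14.6 and 12.9 FPKM. HERPUD1, a ubiquitin-like stress-induced protein of the same complex, was at 4.88 and 5.16 FPKM. SELENOS, a selenoprotein that links the complex to the ATPase VCP, was at 18.7 and 17.4 FPKM. DERL2, a channel component, was at 4.39 and 4.29 FPKM. OS9, a lectin that presents trimmed glycoproteins, was at 38.4 and 41.4 FPKM.

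The mannosidase-like EDEM proteins, which trim sugars to mark a protein for disposal, differed in direction. EDEM1 was at 68.6 and 61.9 FPKM and EDEM2 at 13.4 and 14.2 FPKM. EDEM3 (chromosome 1, 184659365 to 184724047, hg19) was at 14.6 FPKM under DMSO and 3.39 under OPA1, 4.30-fold lower, and 0.396% of all genes had so low a ratio. It had 1 listed transcript of 2 annotated as protein-coding. DERL1, a further channel component, was at 35.9 and 17.2 FPKM (2.09-fold lower). DERL1-202 was at 20.5 FPKM under DMSO and listed at 0 under OPA1, whereas DERL1-201 was at 15.4 and 17.2 FPKM. Thus of the 3 genes at least 2-fold lower, 2 owed their ratio to a transcript that was listed at or near 0 with OPA1.

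Among the sensors, ERN1 and EIF2AK3 were at low levels, and ATF6 was near the median level of all genes, 9.15 FPKM. All were close between the libraries, whereas XBP1 was more abundant and lower. ERN1, the kinase and endonuclease IRE1, was at 1.41 FPKM under DMSO and 1.34 under OPA1. EIF2AK3, the kinase PERK that slows translation, was at 2.67 and 2.71 FPKM. ATF6, a membrane-bound transcription factor released by cleavage in the Golgi, was at 10.2 and 9.59 FPKM. XBP1, the transcription factor downstream of IRE1, was at 36.4 and 27.9 FPKM, 1.30-fold lower.

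For XBP1 the listed transcripts bear on more than the level. Activated IRE1 cuts a short intron out of the mRNA in the cytoplasm, and only the spliced frame encodes the potent transcription factor. The annotation holds this intron, 26 bases long, in XBP1-202 and XBP1-207, both with 376 codons, while XBP1-201, XBP1-203 and XBP1-204 retain its bases. The junction is shown because it separates both forms. It lies at chr22:28796124-28796149 on the minus strand (GRCh38) and was read from the GENCODE release 29 transcripts. The capitals mark the removed bases, with 30 bases on either side.
XBP1-201: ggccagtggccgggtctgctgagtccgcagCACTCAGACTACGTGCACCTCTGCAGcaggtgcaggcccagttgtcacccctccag
XBP1-207: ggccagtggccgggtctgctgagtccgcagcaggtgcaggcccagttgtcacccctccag

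Transcripts with the intron removed summed to 5.68 FPKM under DMSO and 9.61 under OPA1, or 1.69-fold higher. Those retaining it summed to 30.8 and 18.3 FPKM, or 1.68-fold lower. The spliced form was 15.6% of XBP1 FPKM with DMSO and 34.4% with OPA1. The higher sum came from XBP1-207, at 3.90 and 8.61 FPKM, while XBP1-202 was at 1.79 and 1.002 FPKM. Of XBP1 FPKM, 20.1% lay on different transcripts in the 2 libraries, and the median of this share over genes with several listed transcripts was 13.8%. The reads over the junction were not analysed here, so the division between forms is the authors' estimate.

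**Figure D3:**
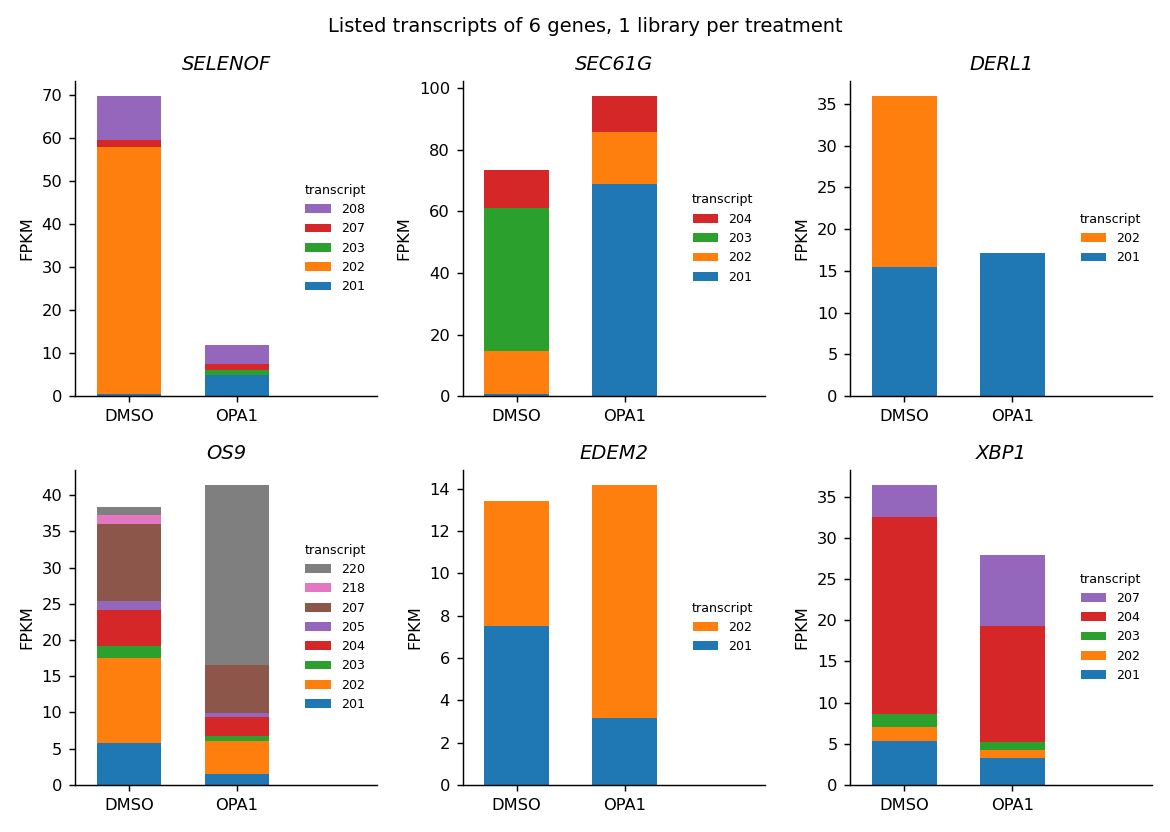
FPKM of each listed transcript, stacked, in the DMSO and OPA1 libraries for the 5 genes with over 30% of their FPKM on different transcripts and for XBP1; panels have their own scales. In SELENOF and DERL1 the transcript 202 is present in the DMSO bar and at or near 0 in the OPA1 bar, and in SEC61G transcripts 203 and 201 trade places.

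Differences in transcript shares were common in the whole table. Of the 24 genes with more than 1 listed transcript, 5 (20.8%) had over 30% of their FPKM on different transcripts in each library, where 27.9% of all such genes did. In SEC61G, SEC61G-203 was at 46.5 FPKM under DMSO and listed at 0 under OPA1, while SEC61G-201 was at 0.667 and 69.0 FPKM. All 4 SEC61G transcripts are annotated with the same number of codons, 68. In OS9, OS9-220 was at 1.11 and 24.9 FPKM, and the other 7 transcripts together were at 37.3 and 16.6 FPKM. EDEM2-201 was at 7.53 and 3.16 FPKM and EDEM2-202 at 5.89 and 11.0 FPKM. Smaller exchanges were present in PDIA6 and P4HB. PDIA6-207 was at 0.119 and 53.5 FPKM and the main transcript PDIA6-201 at 241 and 177 FPKM. P4HB-203 was at 39.9 and 14.04 FPKM. The main transcript P4HB-202, annotated with an incomplete coding part, was at 126 and 142 FPKM. Of the 38 genes, 27 had steady shares, with at most 10% of FPKM on different transcripts, but 14 of the 27 had 1 listed transcript and so could not differ in shares. In the 27, 20 were lower, against 49.9% of all genes with steady shares, and the median log2 ratio was -0.11.

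Several promoters of these genes hold elements of the unfolded protein response. As that response raises chaperone and ERAD genes, the shares below are not independent of the choice of members. ATF6, together with the CCAAT-binding factor NF-Y, is known to bind the ER stress response elements ERSE (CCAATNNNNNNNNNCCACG) and ERSE-II (ATTGGNCCACG), and XBP1 to bind the element UPRE (TGACGTGG). Each was searched on both strands in RefSeq windows from 250 bases before to 50 bases after annotated starts (GRCh38.p14). Only exact matches to these letters were counted, with N as any base, so sites close to a motif are missed. Entries existed for 36 of the 38 genes, all but PDIA3 and DERL1. ERSE was found in 7 of these 36 genes (19.4%) and in 25 of all 27305 genes with a window (0.0916%). ERSE-II was found in 3 of the 36 and in 0.0696% of all genes, and UPRE in 2 of the 36, HYOU1 and DNAJC10, and in 0.927% of all genes. Among the 8428 genes that had a window and averaged 1 FPKM or more, as the 36 did, the shares were 0.166% for ERSE, 0.142% for ERSE-II and 1.15% for UPRE. The sites are printed because they are the ER stress elements found in this set, with those of HYOU1 shown after them, each 5′ to 3′ in the direction of its gene, with the motif in capitals and 12 bases on either side.
HSPA5, ERSE, chr9:125241379-125241421, minus strand: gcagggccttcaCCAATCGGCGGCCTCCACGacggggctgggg
XBP1, ERSE, chr22:28800591-28800633, minus strand: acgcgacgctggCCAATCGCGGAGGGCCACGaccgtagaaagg
PDIA6, ERSE, chr2:10812841-10812883, minus strand: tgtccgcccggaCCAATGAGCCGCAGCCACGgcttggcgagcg
CANX, ERSE, chr5:179698766-179698808, plus strand: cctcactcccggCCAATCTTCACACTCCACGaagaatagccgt
HSP90B1, ERSE, chr12:103930204-103930246, plus strand: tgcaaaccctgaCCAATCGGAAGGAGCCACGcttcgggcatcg
HSP90B1, ERSE reversed, chr12:103930309-103930351, plus strand: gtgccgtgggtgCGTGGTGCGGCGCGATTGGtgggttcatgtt
CALR, ERSE reversed, chr19:12938372-12938414, plus strand: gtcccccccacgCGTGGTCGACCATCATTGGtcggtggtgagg
CRELD2, ERSE reversed, chr22:49918542-49918584, plus strand: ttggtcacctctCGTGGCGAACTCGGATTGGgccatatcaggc
HERPUD1, ERSE-II, chr16:56932013-56932047, plus strand: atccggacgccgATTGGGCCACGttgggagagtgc
SDF2L1, ERSE-II reversed, chr22:21642102-21642136, plus strand: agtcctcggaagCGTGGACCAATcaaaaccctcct
DNAJC10, UPRE reversed, chr2:182716120-182716151, plus strand: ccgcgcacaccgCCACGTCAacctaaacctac

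The window of HYOU1 is given whole (chr11:119057156-119057455, minus strand), since this gene had the lowest ratio among the chaperones and the most exact matches. A link between the matches and the ratio was not tested. Capitals mark a UPRE that overlaps a reversed ERSE-II, from -188 to -175 relative to the start, and a further reversed ERSE-II, from -79 to -69.
HYOU1: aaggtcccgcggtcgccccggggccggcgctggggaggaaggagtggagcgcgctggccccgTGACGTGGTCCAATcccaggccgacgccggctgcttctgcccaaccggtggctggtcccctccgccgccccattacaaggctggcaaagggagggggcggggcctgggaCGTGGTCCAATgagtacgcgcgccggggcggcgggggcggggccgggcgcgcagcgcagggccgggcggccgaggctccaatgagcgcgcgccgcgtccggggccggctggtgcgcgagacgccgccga

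Of both genes with a UPRE, HYOU1 had a log2 ratio of -0.72 and DNAJC10 one of 0.11. The 10 genes with an ERSE or ERSE-II had log2 ratios from -0.72 in HYOU1 to 0.16 in CRELD2, with 8 of 10 lower and a median of -0.13. Of the other 26 genes with a window, 17 were lower, with a median of -0.08. No test was made of this difference. Outside the set, 16 further measured genes had either motif, 10 of them lower, with a median log2 ratio of -0.04. A match describes letters in the window and does not show that a factor binds there.

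**Figure D4:**
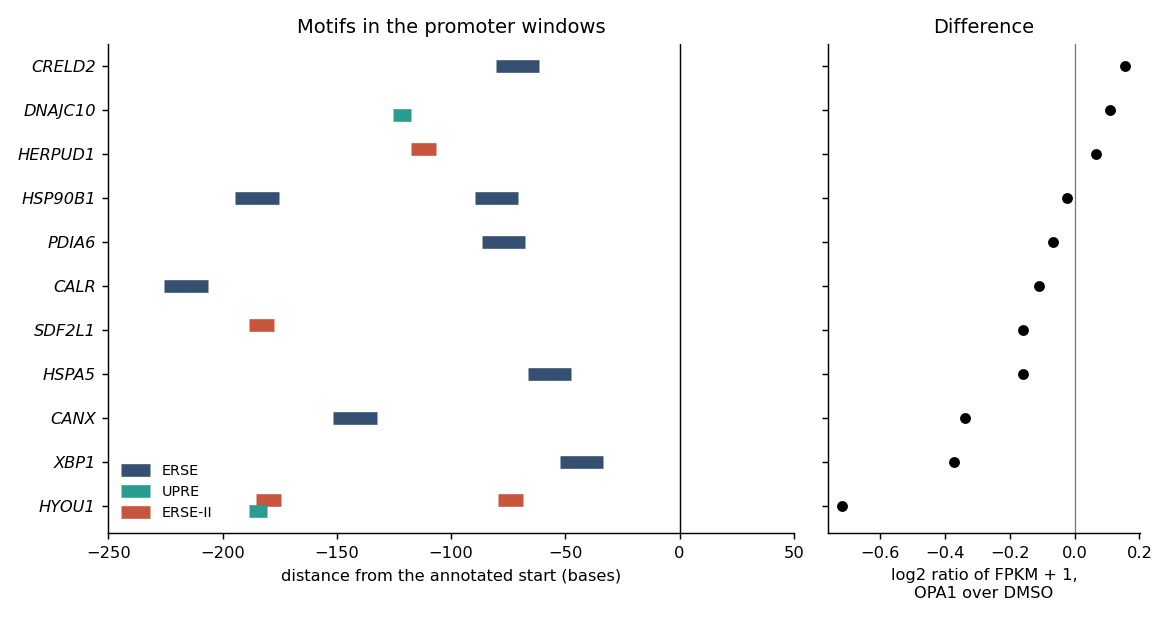
Left, position of each ERSE, ERSE-II and UPRE match relative to the annotated start (0), in bases, for the 11 genes with a match; right, log2 ratio of FPKM + 1 of the same gene (OPA1 over DMSO). Genes are ordered by ratio, from 0.16 in CRELD2 at the top to -0.72 in HYOU1 at the bottom, and all matches lie upstream of the start; a site near several starts is drawn once.

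Other genes of the same pathway were taken from 6 further lists, of which 119 of 123 genes averaged 1 FPKM or more. Of these 119, 61 were lower and 58 higher, with a median log2 ratio of 0.00. Past the 25% threshold 9 were lower and 10 higher. Among all 10601 genes 50.1% were lower, with 11.3% lower and 12.6% higher past that threshold. In the list of further folding factors 15 of 28 genes were lower (median -0.01), 0 of them past the 25% threshold. Its lowest ratios were those of TMX3, a membrane-bound isomerase, at 28.5 and 24.4 FPKM, and TXNDC12, at 96.6 and 87.2 FPKM. Its highest was TXNDC5, a disulfide isomerase, at 11.3 FPKM under DMSO and 27.5 under OPA1, followed by FKBP14, a prolyl isomerase, at 2.33 and 3.30 FPKM.

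Genes that bring proteins to the channel and process them there had a median log2 ratio of -0.01, 11 of 20 being lower. SSR2, a subunit of the translocon-associated TRAP complex, was at 109 and 50.6 FPKM (log2 ratio -1.09), and SRP9, of the signal recognition particle, at 238 and 220 FPKM. The highest ratios were those of SSR4, a further TRAP subunit, at 78.4 and 96.2 FPKM, and SEC61A2, a paralog of SEC61A1, at 7.16 and 9.01 FPKM. Genes of N-glycosylation and glycan trimming were higher in 11 of 18 cases (median 0.04). NGLY1, which strips glycans from retrotranslocated proteins, was at 8.07 and 19.2 FPKM, and OSTC, of the oligosaccharyltransferase, at 54.6 and 88.4 FPKM. MOGS, the first glucosidase, was at 11.5 and 2.62 FPKM, and ERLEC1, an ERAD lectin, at 25.5 and 22.3 FPKM. In NGLY1 and MOGS 75.9% and 75.4% of the FPKM lay on different transcripts in each library, and in SEC61A2 84.3%.

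The ER membrane insertion complexes were higher in 11 of 16 cases (median 0.04). UBL4A, of the tail-anchor insertion pathway, was at 9.79 and 13.1 FPKM and EMC1, of the ER membrane complex (EMC), at 7.82 and 9.21 FPKM. The EMC subunits EMC4, at 32.7 and 21.7 FPKM, and EMC10, at 5.49 and 3.48 FPKM, were lower. In EMC10 32.4% of the FPKM lay on different transcripts in each library. Further ERAD factors were lower in 11 of 21 cases (median 0.00). UBE2G2, a ubiquitin-conjugating enzyme of ERAD, was at 3.49 and 7.14 FPKM and UBXN4, a VCP adaptor, at 18.5 and 28.97 FPKM. CCDC47 was at 40.1 and 29.3 FPKM and UBE2K at 40.6 and 31.6 FPKM. The list of further sensors and branch factors had the lowest median, -0.17, with 12 of 16 lower. DDIT3, the stress factor CHOP, was at 22.6 and 15.4 FPKM and TRIB3, a pseudokinase induced by it, at 40.1 and 28.8 FPKM. Its highest ratios were those of CREB3L2, an ATF6-like membrane-bound factor, at 1.54 and 10.3 FPKM, and its relative CREB3, at 2.18 and 6.64 FPKM.

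**Figure D5:**
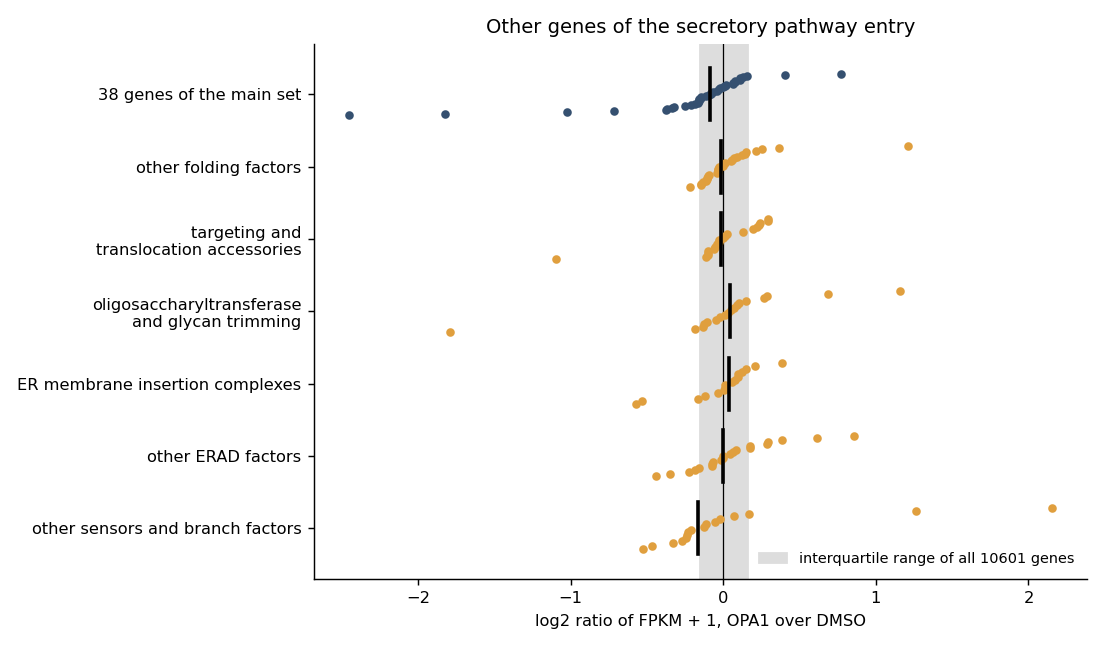
Log2 ratio of FPKM + 1 (OPA1 over DMSO) of the 38 genes and of the 119 further genes in 6 lists, each point a gene; vertical bars are medians and the grey band is the interquartile range of all 10601 genes. The medians of 5 of the 6 further lists lie between -0.01 and 0.04, and that of the further sensors and branch factors at -0.17.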

How the data were processed

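Total RNA of THP-1 cells was sequenced as 1 library per treatment. Per the file headers, the deposited table gives FPKM for each transcript. HISAT, StringTie and edgeR were used on hg19, per the submitters' processing notes, which give no versions or roles. All 29373 rows were protein-coding, each with at least 0.5 FPKM in a library, tested on the table. Transcripts were summed by symbol, genes averaging 1 FPKM or more kept, and log2 ratios taken with a pseudocount of 1 FPKM. FPKM holds no depth and there were no replicates, so no test was run. The thresholds, a difference of 25% of the lower value (on FPKM + 1) and 2-fold, are descriptive. Every member is reported, and of each further list the 2 highest and 2 lowest ratios. Members, roles and lists were chosen with earlier results of these data known. Older symbols were matched by gene ID. Exons, codons and completeness came from GENCODE release 29 by transcript ID, and promoters from RefSeq (GRCh38.p14). No protein sequence was used. Exact zeros can be failed estimates: the DMSO library listed 1337 of them and the OPA1 library 1581. The ratio procedure was checked on simulated data with large known changes, which tests the arithmetic and not the small differences reported here. Software was pandas 2.3.3 with numpy 2.4.6 under Python 3.11.15, and matplotlib 3.10.9 for plots.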

Additional observations from a re-analysis of the deposited data

How the results depend on the processing

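Each summary was recomputed with 0.1 FPKM as pseudocount, with 5 FPKM or nothing as the minimum, with both libraries rescaled to sum to 1000000, with ratios centred on their median or scaled by a 30% trimmed mean, and with the most abundant transcript, steady shares only, and transcripts above 0 in both libraries. Chosen after seeing the data were a minimum of 10 FPKM and genes with 1 annotated protein-coding transcript. With the most abundant transcript, 4 genes were higher past the 25% threshold, and the median log2 ratio was 0.47 for the translocon and -0.008 for ERAD. With transcripts above 0 in both libraries these medians were 0.474 and -0.0607. DERL1 turned to a log2 ratio of 0.1454 under both settings, since they drop DERL1-202. With the most abundant transcript DNAJC10 also changed sign, from 0.1104 to -0.2673, as did SELENOS, from -0.0948 to 0.0102. With steady shares, which leave 27 genes, 4 were lower and 1 higher past it and 1 at least 2-fold different, with medians of 0.0765 for disulfide enzymes and 0.1326 for the translocon. With 7 genes of 1 annotated transcript, 5 were lower, 0 were lower and 0 higher past it, 0 were 2-fold different, and the disulfide median, PDIA3 alone, was 0.0765. A minimum of 5 FPKM moved the sensor median to -0.2247 and one of 10 FPKM, which leaves XBP1, to -0.3721, with -0.1472 over all 29 genes. The median of the chaperones kept within 0.05 of its value under all settings. Depth is unknown, so small differences cannot be set against counting error. No paired analysis was possible because each treatment has 1 library.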
